A study of Mus musculus with 24 samples.

Results

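Entry into mitosis, the spindle checkpoint, the kinetochore and the division of the cell are carried out by a set of genes that are expressed together late in the cell cycle. 50 such genes, chosen as a list of gene symbols (without the Kif genes; Cenpe is the one kinesin motor on it), were followed in mouse muscle stem cells and myoblasts with lowered Chd4, the ATPase of the NuRD chromatin remodelling complex. The deposited tables hold 46078 genes. All 50 listed genes were found in both tables, and all 50 passed the filter on low values in both settings.

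RNA-seq of 16 samples formed 4 groups of 4. In vitro, myoblasts grown from satellite cells of uninjured Chd4fl/fl muscle (C57BL/6, 2 to 4 months of age) were kept proliferating and received adenovirus with GFP (AdGFP) or with Cre (AdCRE) for 72 h. The in vivo samples were satellite cells of Chd4fl/fl and of Chd4dPax7ER mice of the same strain and age range, 3 days after muscle injury by cardiotoxin, sorted as SCA1-, CD45-, alpha7-integrin+ and CD34+ cells. All 8 in vitro cultures carried the floxed alleles and a virus, and only the AdCRE virus carried Cre, so Cre itself cannot be told apart from the drop in Chd4. All 8 in vivo samples came from injured muscle. The name Pax7ER stands only in the label of the case group and carries the name of the satellite cell gene Pax7, and the labels do not spell out the recombinase behind it. The labels do not state whether the Chd4fl/fl mice had a Cre allele or any drug treatment. Values are RPKM, reads divided by gene length and by the reads of the library, so the depth behind them is unknown.

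In dividing cells, cyclin B and the kinase Cdk1 start mitosis, and Aurora and Polo-like kinases build the spindle and correct faulty attachments. The kinetochore, a protein plate on the centromere, holds the chromosome to the microtubules. While a kinetochore is unattached, the Bub and Mad proteins of the spindle checkpoint keep Cdc20 from activating the anaphase-promoting complex, and the chromatids stay together. Satellite cells are quiescent in resting muscle, enter the cell cycle after injury and leave it again when they differentiate. The transcripts of mitosis genes build up in G2 phase, so their level in a bulk sample follows the share of cells in that phase. A lower share of such cells and less RNA per cell cannot be told apart in these data.

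Chd4, the targeted gene, was checked in every library. It had 15.8, 23.9, 21.3 and 22.1 RPKM in the AdCRE libraries (replicates 1 to 4) and 76.2, 67.8, 70.8 and 85.5 RPKM in the AdGFP libraries. In vivo Chd4 had 64.1, 50.4, 63.8 and 48.7 RPKM in Chd4dPax7ER and 135, 126, 119 and 126 RPKM in Chd4fl/fl. It was lower in both (limma adjusted p = 0.00374 and 0.000152), and the groups did not overlap. Of 10 listed satellite cell and myoblast markers, Myod1, Des, Cdh15 and Itga7 were above 50 RPKM in all 16 libraries. The sort antigen Cd34, also on that list, was low (1.19 to 5.82 RPKM in vitro, 5.17 to 8.05 RPKM in vivo). In vitro 9 of the 10 passed the filter on low values. Levels of Pax7, Myf5, Vcam1, Sdc4 and Chrdl2 are not given here. The leukocyte antigen Ptprc, against which the cells were sorted, had 0.16 to 0.59 RPKM in vivo. Ptprc is 1 of 14 listed leukocyte markers, and low Ptprc does not show that leukocyte RNA was absent. Together the 14 summed to 97.3 to 205 RPKM in Chd4dPax7ER and 77.7 to 153 RPKM in Chd4fl/fl. In vitro they summed to 3.85 to 11.8 RPKM in AdCRE and 2.09 to 8.04 RPKM in AdGFP.

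The mitosis genes as a list were lower with lowered Chd4 in both settings. In vitro 49 of the 50 had a negative log2 fold change, with a median of -0.70 beside -0.01 over all 13567 genes tested. In vivo 49 of the 50 were negative too, with a median of -0.56 beside -0.02 over all 13344 genes tested. The 2 exceptions sat at 0: Cdc25b in vitro (0.01) and Mad1l1 in vivo (0.02), and with the values rescaled to a common sum per library (TPM scaling) both were below 0. Fold changes throughout are differences of log2(RPKM + 0.5), case minus control.

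What passed the test differed between the settings. In vitro no member passed limma without a term for the replicate number (adjusted p under 0.05), where 0.14% of all genes tested were called lower and 0.516% higher. The lowest adjusted p was 0.194, for Cenpk, and 19 members had an unadjusted p under 0.05, against 15.6% of all genes. The in vitro libraries of the same number deviated together, so the replicate number was also fitted as a block. With this block 49 of the 50 fell and none rose, where 18.7% of all genes were called lower and 17.5% higher. All but Cdc25b were lower in each of the 4 same-numbered pairs, against 27.1% of all genes. The groups themselves overlapped for all members but Cenpk, against 6.21% of all genes that did not overlap in that direction. In vivo 19 members fell and none rose, where 11.9% of all genes were called lower and 14.7% higher. The 2 in vivo groups did not overlap for 22 members, all lower in Chd4dPax7ER, against 14.3% of all genes.

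**Figure D1:**
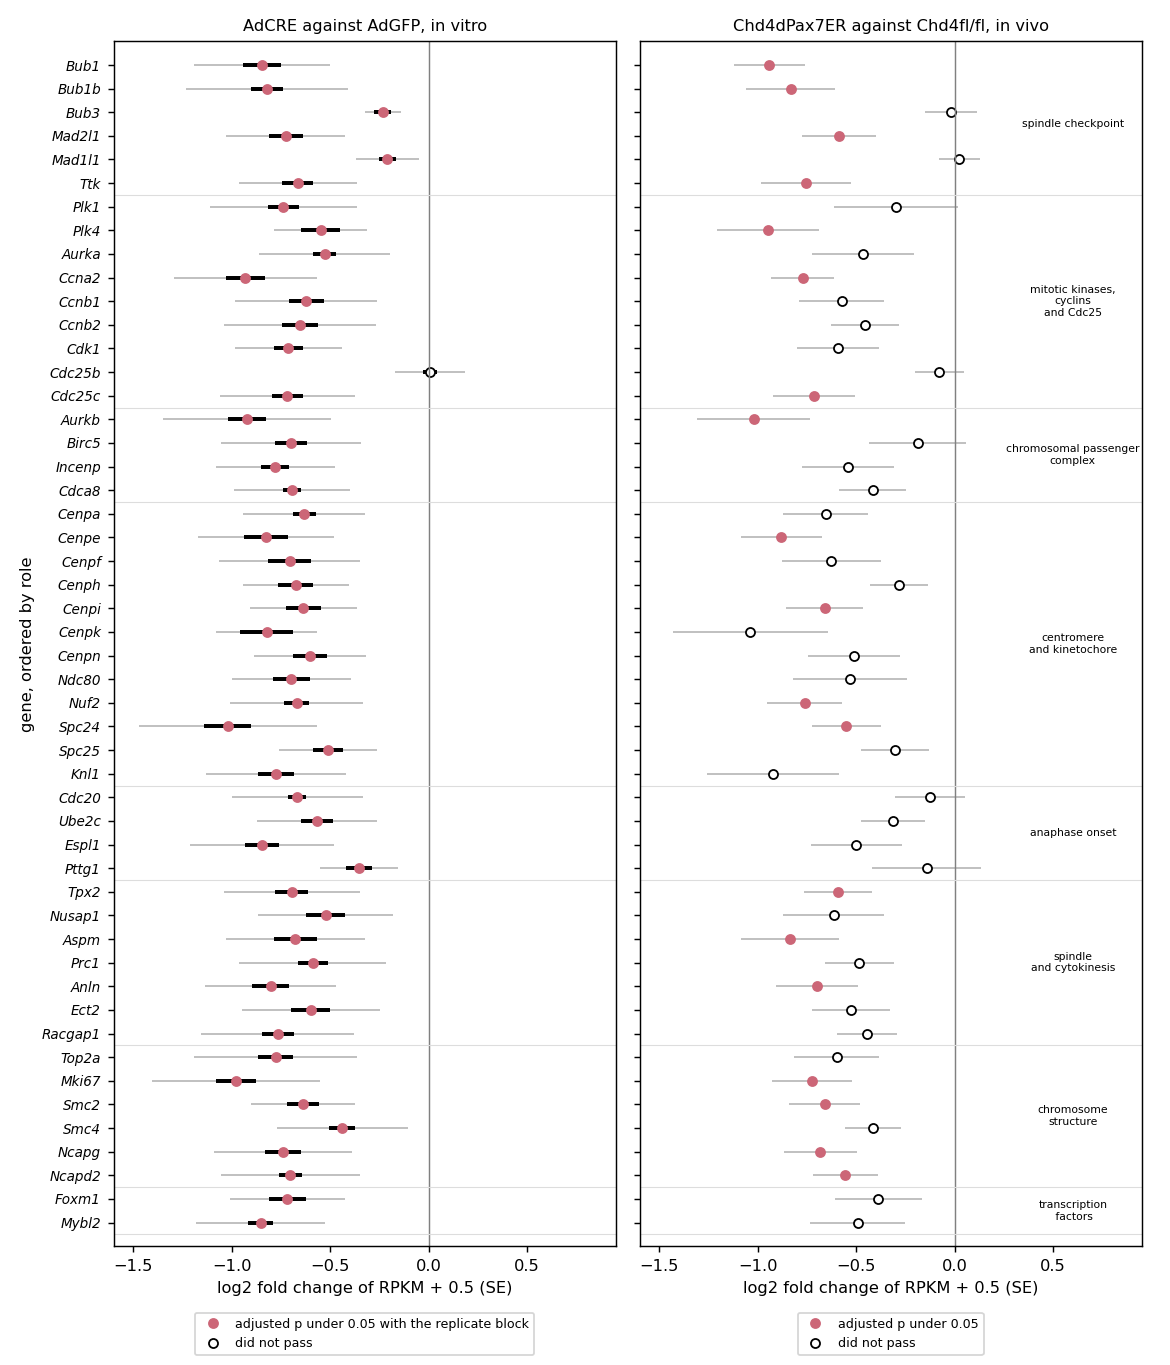
Log2 fold change of RPKM + 0.5 for the 50 genes by role, AdCRE against AdGFP on the left and Chd4dPax7ER against Chd4fl/fl on the right (n = 4 per group). Grey bars are the SE without a block and black bars, in vitro only, the SE with the replicate block; filled points passed the adjusted p of 0.05, with the block on the left and without it on the right. 49 points are filled on the left and 19 on the right, where the 4 anaphase onset genes and the 2 transcription factors are all open. Of all genes tested, 18.7% were called lower on the left and 11.9% on the right.

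The order of the libraries was the same for nearly every member in vitro. The 50 genes summed to 748, 991, 1204 and 1528 RPKM in AdGFP 1 to 4 and to 402, 676, 821 and 1009 RPKM in AdCRE 1 to 4. In each number the AdCRE library had the lower sum, but AdCRE 4 was above AdGFP 1 and AdGFP 2. AdGFP 4 was the highest AdGFP library for 48 members and AdGFP 1 the lowest for 48. AdCRE 4 was the highest AdCRE library for 49 members and AdCRE 1 the lowest for 49. The highest library of a group exceeded the lowest by a median of 2.11 fold in AdGFP and 2.61 fold in AdCRE, whereas over all genes tested these medians were 1.35 and 1.34 fold. The block takes out the part of this spread that libraries of 1 number share. Without AdCRE 1 the members' median was -0.41 without the block, and without the number 1 pair it was -0.60 with the block, where 49 members still passed. In that last fit 1862 of all 13567 genes were called lower.

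In vivo the members summed to 1580, 1260, 1125 and 1173 RPKM in Chd4fl/fl 1 to 4 and to 1004, 607, 904 and 1092 RPKM in Chd4dPax7ER 1 to 4. All 4 Chd4dPax7ER sums were below all 4 Chd4fl/fl sums, the nearest being Chd4dPax7ER 4 and Chd4fl/fl 3. One library stood apart in each group. Chd4fl/fl 1 was the highest of its group for 44 members, and Chd4dPax7ER 2 was the lowest of its group for 46. The count of 19 depended on single libraries: it was 4 without Chd4fl/fl 1, 6 without Chd4fl/fl 2, 12 without Chd4fl/fl 3 and 10 without Chd4fl/fl 4. It was 17, 12, 11 and 28 without Chd4dPax7ER 1, 2, 3 and 4. Calls over all 13344 genes tested moved as well, from 1588 lower with all libraries. Without Chd4fl/fl 1, 2, 3 and 4 there were 1079, 1034, 1176 and 1159. Without Chd4dPax7ER 1, 2, 3 and 4 there were 1436, 1196, 1322 and 1319. The members' median was -0.46 without Chd4fl/fl 1 and -0.38 without Chd4dPax7ER 2. Bub1, Ccna2, Cenpe and Nuf2 passed in all 8 of these fits, and each of the other 15 lost its call in at least 1, with highest adjusted p-values of 0.0587 to 0.101. Of the genes given in full that did not pass, Ccnb1 (0.0392), Cdk1 (0.0311), Top2a (0.0396) and Smc4 (0.0480) passed without Chd4dPax7ER 4. Cenpa (0.0312) and Cenpk (0.0432) passed without Chd4dPax7ER 1.

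**Figure D2:**
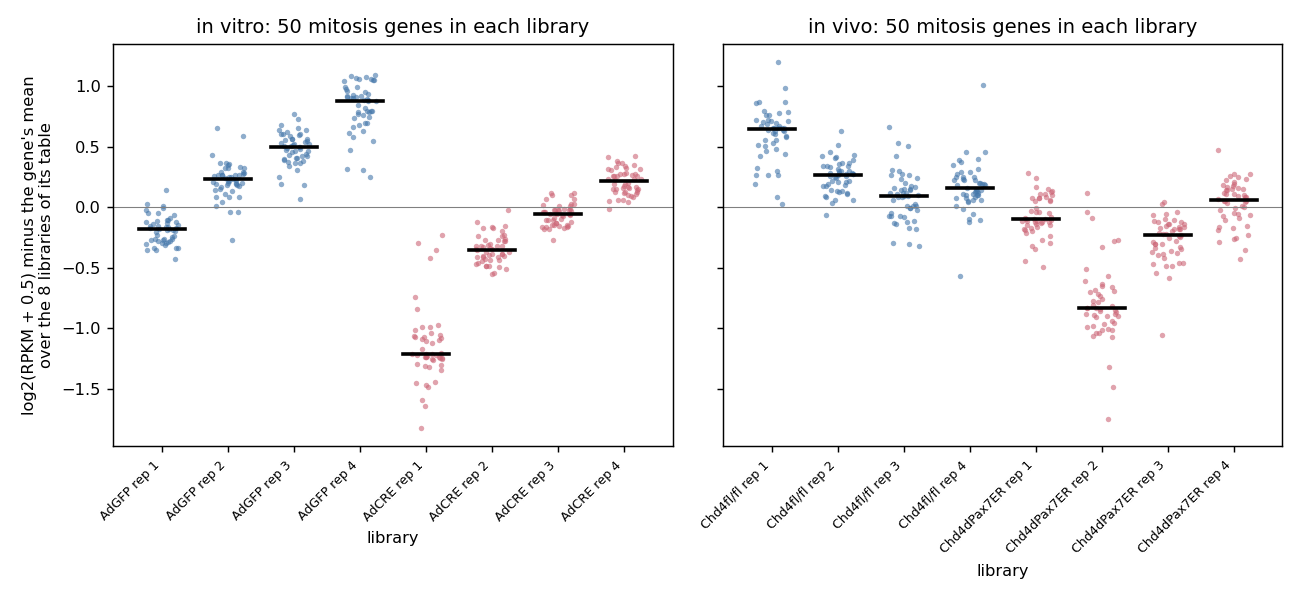
Each point is 1 of the 50 mitosis genes in 1 library, as log2(RPKM + 0.5) minus the gene's mean over the 8 libraries of its table; black bars are medians over the genes. In vitro number 1 is low and number 4 high in both groups, and in vivo Chd4fl/fl 1 is high and Chd4dPax7ER 2 low.

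The genes were looked at for what their promoters share, a property the choice of genes did not use. As background, in resting and early cycling cells the DREAM complex, and later B-Myb and Foxm1 with the same MuvB core, sit at a cell cycle homology region (CHR), often near CCAAT boxes bound by NF-Y. RefSeq promoter windows (GRCm38.p6, from 250 bases before to 50 bases after the annotated start) matched 42 of the 50 symbols, in 48 windows. No window was matched for Ccna2, Cdc25c, Aurkb, Incenp, Spc24, Tpx2, Smc4 and Foxm1. A CHR form (TTTGAA, read as TTCAAA on the other strand, or TTTAAA, which is its own reverse complement) stood in 34 of the 48 windows (70.8%). It stood in 24.9% of the 21215 windows of other protein-coding genes. The CCAAT box, which reads ATTGG when it lies reversed, stood in 36 windows (75%) against 38.1%, and both motifs in 29 (60.4%) against 9.83%. The E2F forms TTTCCCGC or TTTGGCGC, searched on both strands, stood in 2 windows (4.17%) against 2.01%. A match is a run of letters, not a shown binding site, and windows of Bub3, Prc1 and Ect2 overlap, so they share sequence.

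Stretches of 120 bases before the start are printed here for 7 genes in which both motifs occur and for Cdc25b, the member that did not pass in vitro with the block. They are 5′ to 3′ on the strand of the gene, with CHR forms and CCAAT, in either orientation, in capitals. Ccnb1 lies at chr13:100786487-100786606 (minus strand), Cdk1 at chr10:69352913-69353032 (minus), Cdc20 at chr4:118437344-118437463 (minus) and Plk1 at chr7:122159315-122159434 (plus). Cenpa lies at chr5:30666766-30666885 (plus), Espl1 at chr15:102296173-102296292 (plus), Top2a at chr11:99024190-99024309 (minus) and Cdc25b at chr2:131186828-131186947 (plus).
Ccnb1: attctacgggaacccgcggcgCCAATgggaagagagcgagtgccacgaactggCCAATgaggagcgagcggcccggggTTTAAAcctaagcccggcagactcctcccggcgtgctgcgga
Cdk1: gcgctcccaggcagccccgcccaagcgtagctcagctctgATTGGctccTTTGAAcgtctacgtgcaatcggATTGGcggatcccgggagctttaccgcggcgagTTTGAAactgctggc
Cdc20: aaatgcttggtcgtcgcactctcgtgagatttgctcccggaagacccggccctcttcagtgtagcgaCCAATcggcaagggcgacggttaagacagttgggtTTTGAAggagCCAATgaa
Plk1: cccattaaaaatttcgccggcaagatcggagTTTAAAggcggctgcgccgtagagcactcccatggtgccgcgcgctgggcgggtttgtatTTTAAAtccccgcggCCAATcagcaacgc
Cenpa: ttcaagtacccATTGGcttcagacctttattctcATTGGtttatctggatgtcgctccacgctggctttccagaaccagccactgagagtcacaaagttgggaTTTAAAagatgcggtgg
Espl1: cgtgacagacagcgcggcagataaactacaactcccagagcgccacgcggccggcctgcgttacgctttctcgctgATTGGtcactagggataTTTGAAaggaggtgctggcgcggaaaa
Top2a: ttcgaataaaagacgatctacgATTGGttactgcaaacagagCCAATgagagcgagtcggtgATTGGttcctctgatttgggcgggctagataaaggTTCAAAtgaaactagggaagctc
Cdc25b: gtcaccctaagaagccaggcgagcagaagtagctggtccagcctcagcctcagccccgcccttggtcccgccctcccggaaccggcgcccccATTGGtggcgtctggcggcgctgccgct

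In the first 7 stretches the motif letters lie in the last 120 bases before the start, whereas the stretch of Cdc25b holds CCAAT in reverse and no CHR form, and no CHR form was found in its whole window. The 11 members whose windows held no CHR form were Bub1, Mad2l1, Mad1l1, Cdc25b, Cenph, Cenpi, Cenpk, Nuf2, Pttg1, Nusap1 and Mybl2. Their median log2 fold change was -0.67 in vitro and -0.59 in vivo. The 31 members with a CHR form had medians of -0.69 and -0.55. The medians with and without a CHR form were thus close in both settings, and their difference was not tested.

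**Figure D3:**
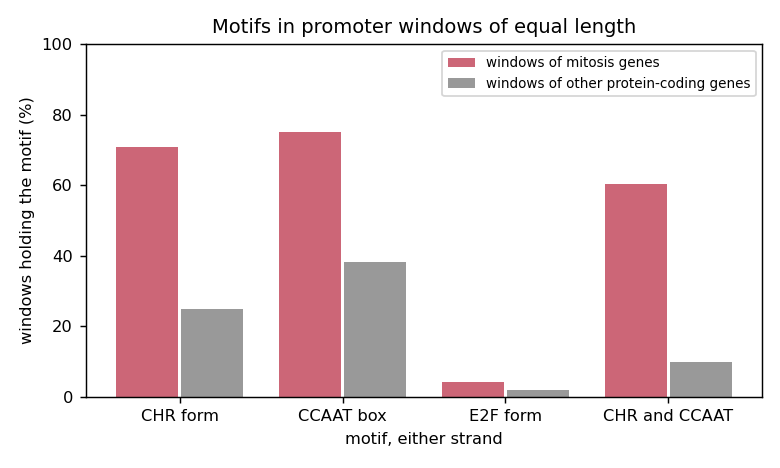
Share of promoter windows, in percent, that hold each motif on either strand, for 48 windows of the mitosis genes and 21215 windows of other protein-coding genes, all 300 bases long. CHR and CCAAT together were in 60.4% of the first and 9.83% of the second.

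Of the spindle checkpoint genes, Bub3 and Mad1l1 had the smallest differences in both settings. Bub1 and Bub1b code for the kinase and pseudokinase that gather at unattached kinetochores, Mad2l1 and Mad1l1 for the Mad2 and Mad1 proteins, Ttk for the Mps1 kinase at the top of the pathway, and Bub3 for the adaptor of Bub1. Of the 6, all fell in vitro with the block and 4 fell in vivo (Bub1, Bub1b, Mad2l1 and Ttk). Over all genes tested, 18.7% were called lower in vitro with the block and 11.9% in vivo. In AdGFP 1 to 4 Bub1 (ENSMUSG00000027379) had 11.3, 15.6, 17.1 and 24.4 RPKM, and in AdCRE 1 to 4 it had 4.47, 9.16, 10.9 and 14.1 RPKM. The means were 17.1 ± 5.45 and 9.64 ± 4.00 RPKM (SD, n = 4), a log2 fold change of -0.85 ± 0.34 (SE; limma adjusted p = 0.291), or ± 0.10 (adjusted p = 0.00111) with the replicate block. Every AdCRE library was below its own number's AdGFP library, and the groups overlapped. In vivo Bub1 had 24.6, 21.6, 20.3 and 17.9 RPKM in Chd4fl/fl and 12.1, 7.58, 9.83 and 14.4 RPKM in Chd4dPax7ER. The groups did not overlap, with means of 21.1 ± 2.81 and 11.0 ± 2.93 RPKM and a log2 fold change of -0.94 ± 0.18 (limma adjusted p = 0.00565).

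Bub3 (the adaptor) was the member with the highest level in AdGFP (67.0, 66.2, 75.0 and 78.4 RPKM), and AdCRE had 56.1, 58.2, 59.4 and 69.9 RPKM. The log2 fold change was -0.23 ± 0.09 (limma adjusted p = 0.280; with the block ± 0.04 and 0.00614). In vivo Bub3 had 55.1, 42.0, 40.6 and 40.9 RPKM in Chd4fl/fl and 47.1, 34.9, 45.3 and 48.8 RPKM in Chd4dPax7ER. These values overlapped, with means of 44.6 ± 6.99 and 44.0 ± 6.26 RPKM and a log2 fold change of -0.02 ± 0.13 (limma adjusted p = 0.930), which became 0.08 without Chd4fl/fl 1 and 0.09 without Chd4dPax7ER 2. Mad1l1 had 10.1, 12.5, 15.1 and 15.2 RPKM in AdGFP and 8.92, 11.1, 12.7 and 12.6 RPKM in AdCRE, a log2 fold change of -0.21 ± 0.16 (limma adjusted p = 0.583; with the block ± 0.04 and 0.00911). In vivo it had 7.61, 7.67, 6.81 and 7.52 RPKM in Chd4fl/fl and 7.22, 8.11, 6.60 and 8.29 RPKM in Chd4dPax7ER, a log2 fold change of 0.02 ± 0.10 (limma adjusted p = 0.889). The other 3 checkpoint genes had log2 fold changes of -0.82 (Bub1b), -0.73 (Mad2l1) and -0.66 (Ttk) in vitro and of -0.83, -0.59 and -0.75 in vivo.

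Among the kinases, cyclins and phosphatases that start and drive mitosis, 8 of 9 fell in vitro with the block and 3 of 9 in vivo (Plk4, Ccna2 and Cdc25c). The shares of all genes called lower were 18.7% and 11.9%. Ccnb1 (ENSMUSG00000041431), cyclin B1, had 9.32, 13.0, 15.1 and 21.6 RPKM in AdGFP and 4.50, 8.93, 11.0 and 14.7 RPKM in AdCRE. Its log2 fold change was -0.62 ± 0.36 (limma adjusted p = 0.455; with the block ± 0.09 and 0.00238). Cdk1 (ENSMUSG00000019942), its kinase, had 34.0, 42.9, 48.9 and 60.9 RPKM in AdGFP and 16.6, 28.0, 31.8 and 39.4 RPKM in AdCRE. The log2 fold change of Cdk1 was -0.71 ± 0.27 (limma adjusted p = 0.263; with the block ± 0.07 and 0.000773). Both were lower in every pair, and both overlapped between groups. Ccna2, cyclin A2, which acts in S phase and G2, had 18.4, 27.3, 30.7 and 39.5 RPKM in AdGFP and 6.86, 15.4, 17.9 and 22.5 RPKM in AdCRE. This was a mean of 15.7 ± 6.57 against 29.0 ± 8.73 RPKM and a log2 fold change of -0.93 ± 0.36 (limma adjusted p = 0.271; with the block ± 0.10 and 0.000940). Plk1 (ENSMUSG00000030867), the Polo-like kinase of spindle assembly, had 19.0, 22.7, 30.6 and 45.1 RPKM in AdGFP and 8.87, 15.1, 18.9 and 28.7 RPKM in AdCRE, a log2 fold change of -0.74 ± 0.37 (limma adjusted p = 0.389; with the block ± 0.08 and 0.000938).

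Cdc25b, a phosphatase that activates Cdk1, was the one member whose in vitro groups had nearly the same mean. It had 23.3, 29.1, 31.3 and 37.1 RPKM in AdGFP and 23.3, 29.4, 30.4 and 38.5 RPKM in AdCRE, means of 30.2 ± 5.72 and 30.4 ± 6.28 RPKM. The log2 fold change was 0.01 ± 0.18 (limma adjusted p = 0.992; with the block ± 0.04 and 0.900). The libraries of Cdc25b kept the order of the other members, with number 1 lowest and number 4 highest, and its pairs differed in sign. Its relative Cdc25c had a log2 fold change of -0.72, the centriole kinase Plk4 of -0.55, Aurka, the kinase of the spindle poles, of -0.53, and Ccnb2 of -0.65 in vitro.

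In vivo Ccna2 had 65.0, 57.8, 51.8 and 52.4 RPKM in Chd4fl/fl and 38.4, 22.8, 34.9 and 38.2 RPKM in Chd4dPax7ER. The groups lay apart, with a log2 fold change of -0.77 ± 0.16 (limma adjusted p = 0.00811). Plk4, the member with the lowest level, had 2.54, 1.34, 2.30 and 1.82 RPKM in Chd4fl/fl and 0.80, 1.22, 0.35 and 0.88 RPKM in Chd4dPax7ER. Its log2 fold change was -0.95 ± 0.26 (limma adjusted p = 0.0251), and it lost the call without Chd4fl/fl 1, 3 or 4 (adjusted p up to 0.0692). Ccnb1 had 25.6, 19.6, 17.5 and 17.2 RPKM in Chd4fl/fl and 14.7, 8.36, 13.1 and 18.1 RPKM in Chd4dPax7ER, a log2 fold change of -0.57 ± 0.22 (limma adjusted p = 0.0811). For Ccnb1 the highest Chd4dPax7ER library lay inside the Chd4fl/fl range. Cdk1 had 49.7, 36.5, 38.1 and 32.4 RPKM in Chd4fl/fl and 29.3, 17.1, 24.1 and 34.7 RPKM in Chd4dPax7ER, a log2 fold change of -0.59 ± 0.21 (limma adjusted p = 0.0633; 0.0456 with TPM scaling). Plk1 had 21.8, 18.0, 11.2 and 12.9 RPKM in Chd4fl/fl and 14.8, 6.48, 12.8 and 19.4 RPKM in Chd4dPax7ER, a log2 fold change of -0.30 ± 0.32 (limma adjusted p = 0.523). The groups overlapped for Plk1, and its lowest value was in Chd4dPax7ER 2. Cdc25b had 38.5, 34.7, 28.3 and 30.6 RPKM in Chd4fl/fl and 34.5, 26.3, 28.8 and 35.5 RPKM in Chd4dPax7ER, a log2 fold change of -0.08 ± 0.12 (limma adjusted p = 0.684). The values of Cdc25b overlapped, as they had in vitro. Cdc25c had a log2 fold change of -0.71 (adjusted p = 0.0321), Aurka of -0.46 and Ccnb2 of -0.46, the last 2 above the threshold.

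**Figure D4:**
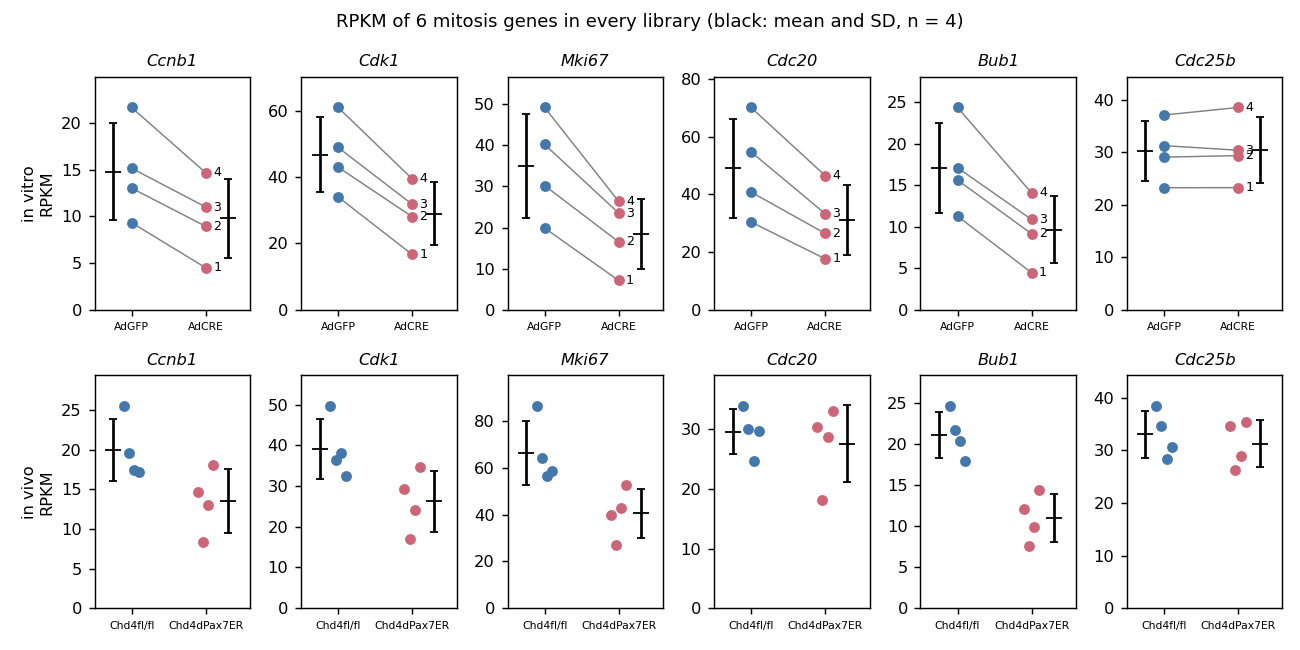
RPKM of Ccnb1, Cdk1, Mki67, Cdc20, Bub1 and Cdc25b in every library, in vitro above with lines joining libraries of the same number and in vivo below; black marks are the mean and SD (n = 4). Of the 6 genes, Bub1 and Mki67 are the ones whose in vivo groups do not overlap, and Cdc25b is the one whose in vitro lines do not all go down.

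The chromosomal passenger complex, which frees wrongly attached chromosomes and later acts at the midzone, has the kinase Aurkb and 3 partners, Incenp, Birc5 (survivin) and Cdca8 (borealin). All 4 fell in vitro with the block, and only Aurkb fell in vivo. Beside this, 18.7% of all genes were called lower with the block in vitro and 11.9% in vivo. With 4 genes, a count of 1 in vivo does not set this role apart. Aurkb (ENSMUSG00000020897) had 11.0, 17.3, 21.2 and 29.0 RPKM in AdGFP and 4.07, 9.94, 11.9 and 16.7 RPKM in AdCRE. Its mean was 10.7 ± 5.25 against 19.6 ± 7.52 RPKM, a log2 fold change of -0.92 ± 0.43 (limma adjusted p = 0.350; with the block ± 0.10 and 0.000835). In vivo Aurkb had 15.3, 12.7, 13.6 and 13.1 RPKM in Chd4fl/fl and 9.96, 3.03, 7.13 and 7.81 RPKM in Chd4dPax7ER. These groups did not overlap, and the log2 fold change was -1.02 ± 0.29 (limma adjusted p = 0.0283), with a lost call without any one Chd4fl/fl library (adjusted p up to 0.0695). Incenp (-0.78 in vitro, -0.54 in vivo), Cdca8 (-0.69 and -0.42) and Birc5 (-0.70 and -0.19) did not pass in vivo. Birc5 had 25.8, 17.4, 13.1 and 16.3 RPKM in Chd4fl/fl and 18.0, 9.84, 15.8 and 20.1 RPKM in Chd4dPax7ER. These values overlapped, and the log2 fold change was 0.019 without Chd4dPax7ER 2.

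At the centromere and kinetochore all 12 genes fell in vitro with the block, with log2 fold changes from -1.02 (Spc24) to -0.51 (Spc25). The share of all genes called lower with the block was 18.7%. Spc24 and Spc25 are the inner pair of the Ndc80 complex and Ndc80 and Nuf2 the outer pair that binds the microtubule. Spc24 had 12.9, 25.3, 25.8 and 32.1 RPKM in AdGFP and 4.13, 13.0, 14.8 and 17.9 RPKM in AdCRE, a log2 fold change of -1.02 ± 0.45 (limma adjusted p = 0.327; with the block ± 0.12 and 0.00119). Ndc80 (ENSMUSG00000024056) had 12.3, 17.6, 19.8 and 22.2 RPKM in AdGFP and 5.52, 12.1, 13.3 and 14.3 RPKM in AdCRE, a log2 fold change of -0.70 ± 0.30 (limma adjusted p = 0.319; with the block ± 0.09 and 0.00208). The lowest library, AdCRE 1, was far below the other 3 in both genes. Cenpa (ENSMUSG00000029177), the histone H3 variant that marks the centromere, had 8.46, 10.8, 12.8 and 18.5 RPKM in AdGFP and 4.61, 6.88, 8.79 and 12.2 RPKM in AdCRE. The log2 fold change of Cenpa was -0.63 ± 0.31 (limma adjusted p = 0.377; with the block ± 0.06 and 0.000601). Cenpk, of the inner kinetochore network, had 5.78, 8.08, 6.89 and 7.83 RPKM in AdGFP and 1.95, 4.23, 4.65 and 5.15 RPKM in AdCRE, a log2 fold change of -0.82 ± 0.26 (limma adjusted p = 0.194; with the block ± 0.13 and 0.00400). Cenpk alone among the members had in vitro groups that did not overlap.

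Where 11.9% of all genes were called lower in vivo, 4 of the 12 kinetochore genes fell. They were Cenpe (-0.88, limma adjusted p = 0.0132), the motor that brings chromosomes to the plate, Nuf2 (-0.76, adjusted p = 0.0170), Cenpi (-0.66, adjusted p = 0.0337) and Spc24 (-0.55, adjusted p = 0.0440). Cenpk had the lowest log2 fold change of all members, -1.04 ± 0.39, from 4.92, 3.54, 5.10 and 7.29 RPKM in Chd4fl/fl and 4.09, 0.65, 2.70 and 2.68 RPKM in Chd4dPax7ER. Its groups overlapped through 1 library on each side, and it did not pass (limma adjusted p = 0.0811; 0.0432 without Chd4dPax7ER 1). Knl1, the scaffold for Bub1 at the kinetochore, had a log2 fold change of -0.92 (adjusted p = 0.0722). Cenpa had 21.8, 15.3, 13.2 and 14.9 RPKM in Chd4fl/fl and 13.4, 6.90, 8.88 and 12.1 RPKM in Chd4dPax7ER, a log2 fold change of -0.66 ± 0.22 (limma adjusted p = 0.0508), and it passed with TPM scaling (0.0390), quantile scaling (0.0445) and a pseudocount of 1 (0.04995). Ndc80 had 32.4, 22.6, 20.1 and 17.0 RPKM in Chd4fl/fl and 20.9, 8.58, 14.6 and 21.0 RPKM in Chd4dPax7ER, a log2 fold change of -0.53 ± 0.29 (limma adjusted p = 0.202). The smallest values were those of Cenph (-0.28) and Spc25 (-0.30), with Cenpn at -0.51 and Cenpf at -0.63 between.

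The 4 genes of anaphase onset fell in vitro with the block, where 18.7% of all genes were called lower, and none passed in vivo. With 11.9% of all genes called lower in vivo, 0 of 4 does not set this role apart. Cdc20 activates the anaphase-promoting complex, Ube2c is the conjugating enzyme that serves it, Pttg1 (securin) holds back the protease separase, and Espl1 is separase. Cdc20 (ENSMUSG00000006398) had 30.4, 40.8, 54.7 and 70.1 RPKM in AdGFP and 17.7, 26.5, 33.3 and 46.5 RPKM in AdCRE. The pairs were evenly apart, and the log2 fold change was -0.67 ± 0.33 (limma adjusted p = 0.383; with the block ± 0.04 and 0.000232). In vivo Cdc20 had 34.0, 30.1, 24.7 and 29.7 RPKM in Chd4fl/fl and 30.5, 18.2, 28.7 and 33.0 RPKM in Chd4dPax7ER. The groups overlapped, with means of 29.6 ± 3.79 and 27.6 ± 6.50 RPKM and a log2 fold change of -0.12 ± 0.18 (limma adjusted p = 0.645), which was 0.06 without Chd4dPax7ER 2. Pttg1 had log2 fold changes of -0.35 in vitro and -0.14 in vivo (0.044 without Chd4fl/fl 2 and 0.0092 without Chd4fl/fl 1), Ube2c of -0.57 and -0.31, and Espl1 of -0.85 and -0.50.

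The 7 genes of the spindle and of cytokinesis lay close together in vitro, from -0.80 (Anln) to -0.52 (Nusap1), and all 7 fell with the block. Among all genes, 18.7% were called lower with the block in vitro and 11.9% in vivo. In vivo 3 fell: Aspm (-0.84, limma adjusted p = 0.0344), which focuses the spindle poles, Anln (-0.70, adjusted p = 0.0368), the anillin scaffold of the cleavage furrow, and Tpx2 (-0.59, adjusted p = 0.0332), the activator of Aurka. Anln had 67.6, 53.0, 44.3 and 51.3 RPKM in Chd4fl/fl and 39.0, 20.6, 35.9 and 39.7 RPKM in Chd4dPax7ER, with no overlap. Nusap1 (-0.61), Ect2 (-0.53), Prc1 (-0.49) and Racgap1 (-0.45) did not pass in vivo. Racgap1, a partner of Ect2 in placing the furrow, had groups that did not overlap all the same (24.2 to 31.5 against 14.2 to 23.4 RPKM).

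Chromosome structure was the one role in which every gene had in vivo groups that did not overlap. Its 6 genes were the topoisomerase Top2a, the proliferation antigen Mki67 that coats mitotic chromosomes, and the condensin subunits Smc2, Smc4, Ncapg and Ncapd2. Among all genes tested, 14.3% did not overlap with Chd4dPax7ER lower. Of the 6, 4 passed (Mki67, Smc2, Ncapg and Ncapd2), where 11.9% of all genes were called lower. The spindle checkpoint also had 4 of 6 that passed, with a median of -0.67 against -0.63 for chromosome structure. Mki67 (ENSMUSG00000031004) had 86.5, 64.2, 56.6 and 58.5 RPKM in Chd4fl/fl and 40.0, 26.9, 42.8 and 52.5 RPKM in Chd4dPax7ER. Its means were 66.4 ± 13.8 and 40.5 ± 10.6 RPKM, a log2 fold change of -0.72 ± 0.20 (limma adjusted p = 0.0272), and the call was lost without Chd4fl/fl 1 (0.0663), Chd4fl/fl 2 (0.0570) or Chd4dPax7ER 1 (0.0519). Top2a (ENSMUSG00000020914) had 97.6, 78.8, 71.8 and 70.1 RPKM in Chd4fl/fl and 55.2, 32.2, 59.0 and 69.2 RPKM in Chd4dPax7ER, a log2 fold change of -0.60 ± 0.21 (limma adjusted p = 0.0676). Chd4dPax7ER 4 came within about 1 RPKM of the lowest Chd4fl/fl library. Smc4 (ENSMUSG00000034349), the member with the highest level in Chd4fl/fl, had 106, 89.6, 82.3 and 83.4 RPKM there and 73.1, 49.9, 71.4 and 78.4 RPKM in Chd4dPax7ER, a log2 fold change of -0.42 ± 0.14 (limma adjusted p = 0.0586; 0.0399 with TPM scaling). Smc2 had a log2 fold change of -0.66 (adjusted p = 0.0254), Ncapg of -0.68 (0.0249) and Ncapd2 of -0.55 (0.0348).

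In vitro all 6 of these fell with the block, where 18.7% of all genes were called lower. Mki67 had 19.9, 30.2, 40.2 and 49.2 RPKM in AdGFP and 7.13, 16.5, 23.5 and 26.4 RPKM in AdCRE, a mean of 18.4 ± 8.58 against 34.9 ± 12.7 RPKM. Its log2 fold change was -0.98 ± 0.43 (limma adjusted p = 0.320; with the block ± 0.10 and 0.000845), and AdCRE 4 was between AdGFP 1 and AdGFP 2. Top2a had 28.0, 41.6, 50.9 and 74.1 RPKM in AdGFP and 12.4, 26.2, 34.0 and 44.2 RPKM in AdCRE, a log2 fold change of -0.78 ± 0.41 (limma adjusted p = 0.408; with the block ± 0.09 and 0.00107). Smc4 had 26.6, 41.6, 45.6 and 60.4 RPKM in AdGFP and 16.8, 31.9, 38.5 and 43.1 RPKM in AdCRE, a log2 fold change of -0.44 ± 0.33 (limma adjusted p = 0.582; with the block ± 0.07 and 0.00299). Smc4 had the smallest difference of the condensin members, and Smc2 (-0.64), Ncapd2 (-0.70) and Ncapg (-0.74) were larger.

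Foxm1 and Mybl2 (B-Myb) are the transcription factors that act on many of the other members in G2. Foxm1 (ENSMUSG00000001517) had 10.8, 11.9, 17.2 and 19.7 RPKM in AdGFP and 4.93, 8.68, 9.88 and 12.6 RPKM in AdCRE, a log2 fold change of -0.72 ± 0.29 (limma adjusted p = 0.290; with the block ± 0.09 and 0.00187). Mybl2 (ENSMUSG00000017861) had 3.27, 4.67, 6.19 and 8.03 RPKM in AdGFP and 1.41, 2.51, 3.42 and 4.14 RPKM in AdCRE, a log2 fold change of -0.85 ± 0.33 (limma adjusted p = 0.267; with the block ± 0.06 and 0.000298). Both were lower in every pair and fell with the block, where 18.7% of all genes were called lower. In vivo Foxm1 had 22.1, 17.4, 14.8 and 17.0 RPKM in Chd4fl/fl and 14.9, 8.09, 14.9 and 17.6 RPKM in Chd4dPax7ER, a log2 fold change of -0.39 ± 0.22 (limma adjusted p = 0.224). Mybl2 had 7.84, 6.28, 4.57 and 5.13 RPKM in Chd4fl/fl and 4.17, 2.44, 4.30 and 5.77 RPKM in Chd4dPax7ER, a log2 fold change of -0.49 ± 0.24 (limma adjusted p = 0.162). Neither passed in vivo, where 11.9% of all genes were called lower, and both overlapped between groups.

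The fold changes of the 2 settings were compared within 1 fit over the 16 libraries. No member differed between the settings at an adjusted p under 0.05, where 4.12% of the 11941 genes tested in both did. None had an unadjusted p under 0.05 either, and with the replicate block (14.1% of all genes past the adjusted threshold, and no member) 2 had one, Cdc20 and Mad1l1, both named after their values were seen. The median of the differences (in vitro minus in vivo) was -0.10, and it was 0.18 without AdCRE 1, 0.06 without AdGFP 4 and 0.01 without Chd4dPax7ER 4. The differences ran from -0.54 for Cdc20 (95% interval -1.39 to 0.30, limma adjusted p = 0.513; with the block 0.0783) to 0.40 for Plk4 (-0.36 to 1.16, adjusted p = 0.609). For Birc5 the difference was -0.51 (-1.48 to 0.46) and for Plk1 -0.44 (-1.55 to 0.67). Intervals of this width do not show that the settings act alike. In particular, Cdc20, Plk1 and Birc5 passed with the block in vitro and did not pass in vivo, and their difference between the settings was not past the threshold.

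Pooled, genes of the same machinery outside the 50 had smaller median differences. By list this did not hold for the 4 remaining condensin subunits in vivo (-0.60 beside -0.56). Of 80 further genes on 7 lists, 78 were found and tested in both settings. In vitro none of the 78 passed without the block (median -0.30), and with the block 52 fell and 1, the subunit Cdc16 of the anaphase-promoting complex (0.17), rose. With this block 18.7% of all genes were called lower and 17.5% higher. In vivo 25 fell and 1 rose (median -0.32), where 11.9% of all genes were called lower and 14.7% higher. The one that rose was Mad2l1bp (0.64, limma adjusted p = 0.0110), whose product p31comet turns off Mad2. The lowest log2 fold changes among those that fell were those of Rbl1 (-1.04, adjusted p = 0.00630), the p107 pocket protein of DREAM, and Mastl (-0.89, adjusted p = 0.0191), the Greatwall kinase.

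By list, 6 of 21 further kinetochore genes fell in vivo (among them Hjurp, Dsn1 and Cenpb), with a median of -0.43. Cohesin and its regulators had 5 of 12 that fell (Pds5b, Pds5a, Rad21, Stag2 and Smc3), with a median of -0.40. Entry regulators had 4 of 9 (Mastl, Wee1, Bora and Cdc25a, median -0.23), and the remaining condensin subunits 2 of 4 (Ncapg2 and Ncapd3, median -0.60). The RZZ complex and checkpoint partners had 2 of 7 that fell, Sgo1 and Kntc1, beside Mad2l1bp, which rose. Subunits of the anaphase-promoting complex had 3 of 14 (Cdc27, Anapc5 and Anapc4) and a median of -0.25. DREAM and MuvB genes had 3 of 11 (Rbl1, Rbbp4 and Tfdp1) and a median of -0.26. In vitro the medians of these last 2 lists were -0.11 and -0.06, and 4 genes of each fell with the block. Beside these counts, 11.9% of all genes were called lower in vivo and 18.7% in vitro with the block.

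DNA replication genes were set beside the members as the other large group of cycling genes. In vitro none of the 38 passed without the block, 37 fell with it, and the median was -0.62. With the block 18.7% of all genes were called lower. The groups did not overlap for 17 of the 38 replication genes in vitro, against 1 of the 50 mitosis genes and 6.21% of all genes. The highest library exceeded the lowest by a median of 1.61 fold in AdGFP and 1.79 fold in AdCRE for the replication genes, less than the 2.11 and 2.61 fold of the mitosis genes. In vivo 7 of the 38 fell (Cdc45, Rrm2, Rfc5, Rrm1, Rfc2, Pola1 and Mcm4), with a median of -0.33 beside -0.56 for the mitosis genes. The share of all genes called lower in vivo was 11.9%. These lists were compared by counts and medians only.

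**Figure D5:**
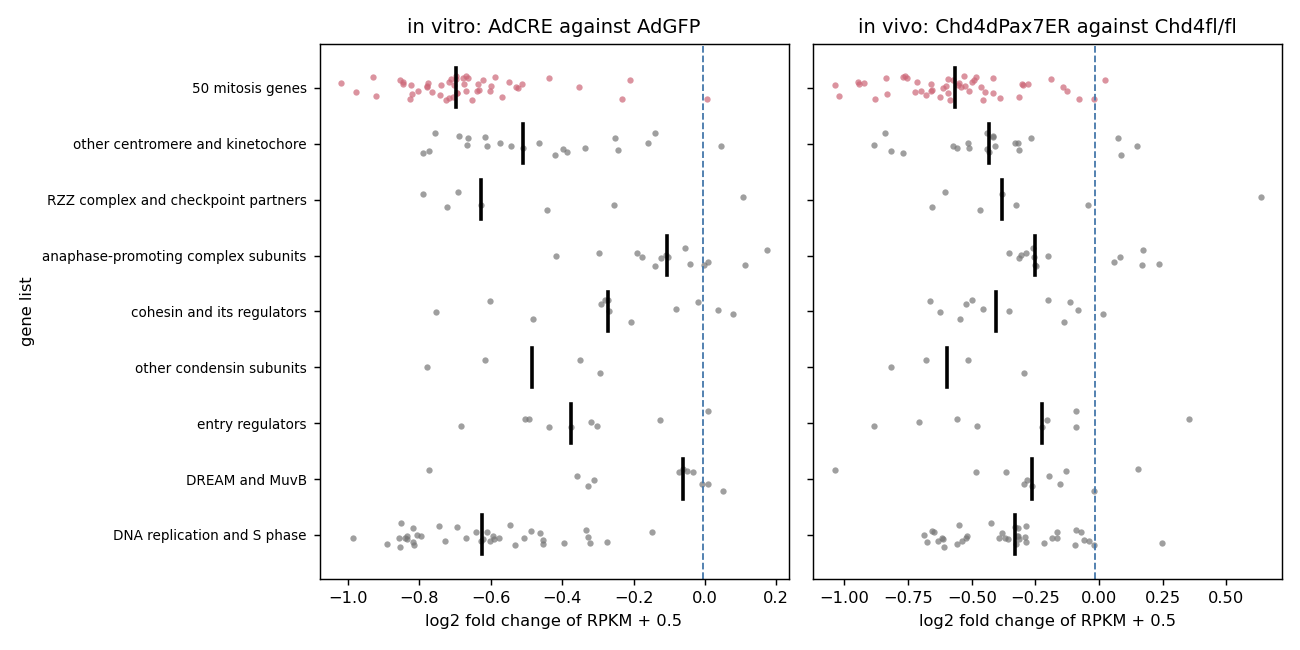
Log2 fold change of RPKM + 0.5 of every tested gene, one point each, for the 50 mitosis genes, 7 lists of further mitosis genes and the DNA replication list. Black bars are list medians and the dashed line is the median of all genes tested; the mitosis genes have the lowest median in vitro (-0.70), while in vivo the 4 remaining condensin subunits have a median of -0.60 beside -0.56.

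Several marker lists, of the muscle lineage and of other cells, differed between the groups in vivo, where 14.7% of all genes were called higher. Of 8 myofibre markers 7 were tested and all 7 rose, from Ckm (1.31) to Myh1 (2.03). The 8 summed to 1156, 2420, 854 and 985 RPKM in Chd4dPax7ER and to 266.0, 499, 478 and 548 RPKM in Chd4fl/fl. Chd4dPax7ER 2, with the lowest sum of the mitosis genes, had the highest myofibre sum, and Chd4fl/fl 1, with the highest sum of the mitosis genes, had the lowest. In vitro the myofibre sums were 883, 3567, 3339 and 1429 RPKM in AdGFP and 1140, 4389, 3665 and 2179 RPKM in AdCRE, higher in AdCRE within each pair, while number 1 was lowest in both lists. Of 6 markers of fibro-adipogenic progenitors 3 rose in vivo (Dpt, Col1a1 and Dcn), with sums of 196 to 326 RPKM in Chd4dPax7ER and 86.6 to 116 RPKM in Chd4fl/fl. Of the 5 pericyte and smooth muscle markers 2 rose in vivo (Rgs5 and Cspg4), with sums of 203 to 400 RPKM in Chd4dPax7ER, highest in Chd4dPax7ER 2, and 109 to 255 RPKM in Chd4fl/fl. Of the 6 endothelial markers 2 were tested and 1 rose in vivo (Cldn5, 1.96), with sums of 7.74 to 14.2 and 3.62 to 6.85 RPKM. The erythroid gene Hba-a1 passed as higher, at 0.55 to 4.03 RPKM in Chd4dPax7ER and listed at 0 in all 4 Chd4fl/fl libraries. In vitro Ly6a (2.13) and Col1a1 (1.62), fibro-adipogenic markers of which 3 were tested, and the pericyte marker Rgs5 (2.06), of 3 tested, rose without the block. None of the 9 tested leukocyte markers passed in vivo, with sums of 97.3 to 205 and 77.7 to 153 RPKM, and in vitro the list summed to 3.85 to 11.8 and 2.09 to 8.04 RPKM, with Adgre1 at 0 in all 8 libraries. Of the 10 satellite cell markers Pax7 fell in vivo (-0.85), while Itga7, Sdc4, Myod1 and Des rose. The lowest log2 fold change on this list in vivo was -1.51, in a gene that did not pass. With the block 2 fell and 4 rose in vivo. In vitro 5 of the 9 tested were negative, the lowest at -1.02. None of the 9 passed without the block, and with it 3 fell and 0 rose. The part of these shifts in the values of the mitosis genes was not tested.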

How the data were processed

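RNA-seq of 16 samples was analysed, 4 per group, with groups and replicate numbers taken from the sample titles. 8 ATAC-seq samples of the series were not analysed here. The authors deposited 1 table of RPKM values per setting, with Ensembl identifiers and symbols, and those of the in vivo table carry only 2 decimals. The submitters' processing notes list HISAT2 2.1.0 among the alignment and cleaning tools (cutadapt 1.18 and Picard 2.18.15 too), DESeq2 3.6 for an unstated use, and the builds GRCm38 and mm10. The program that counted reads, the gene lengths and the use of strand are not given in the sources for this report. RPKM shows no depth, so no counting interval is given.

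AdCRE was set against AdGFP and Chd4dPax7ER against Chd4fl/fl, each inside its own table. A gene was kept when 4 or more of the 8 libraries reached an RPKM of 0.5, and log2(RPKM + 0.5) went into limma 3.58.1 (R 4.3.3), with variances that follow the mean, and p-values were adjusted over all genes tested by Benjamini-Hochberg. The procedure was tested on simulated data. A call is an adjusted p under 0.05. The difference between settings was a contrast in 1 limma fit over both tables. The labels do not say whether replicates were separate animals or cultures, so a p-value here reflects no more than how far these samples spread, which may be technical. Samples of the same number may pair: the correlation of their deviations from the group means was 0.711 to 0.856 in all 4 in vitro pairs and -0.0967 to 0.0499 in vivo. Libraries of different numbers had -0.524 to 0.438 in vitro and -0.144 to 0.118 in vivo. Over the members alone the in vitro pairs 1, 2 and 4 had 0.843, 0.699 and 0.863. Pair 3 had 0.298 over the members, below the 0.415 of AdCRE 3 with AdGFP 4. In vitro, results are therefore given without and with the number as a block. Alternatives were other pseudocounts, no filter, TPM and quantile scaling, no mean trend, the block and leaving out each library.

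The 50 genes, their roles and all other lists were chosen with earlier results of these data known. Values in every library were given for 14 listed genes (Ccnb1, Cdk1, Aurkb, Bub1, Bub3, Cdc20, Plk1, Foxm1, Mybl2, Cenpa, Ndc80, Mki67, Top2a and Smc4) and for the 3 members with the largest falls and any that rose most or fell least. Of the further lists, the genes that passed are named, or else at most 2, except that some genes of the further kinetochore list are not reported here. Library values of Cenpk in vitro, and of Birc5, Anln and Racgap1, were added after they were seen. Promoter windows came from RefSeq (GRCm38.p6), and motifs were found as exact letters on both strands.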

Additional observations from a re-analysis of the deposited data

Results flagged for a closer look

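In 7 of the 200 groups of 4 library values examined (50 genes, 4 groups), 1 library lay so far from the other 3 that its gap exceeded Dixon's 95% critical value for 4 samples. Chance alone marks about 1 group in 20, so 7 of 200 is not above that share. The genes also moved together across libraries, so the 200 groups are not independent. Chd4fl/fl 1 was the highest of its group for 44 members, and Chd4dPax7ER 2 the lowest of its group for 46. The share over all genes was not examined. In Chd4fl/fl replicate 1, 5 genes were high. Bub3 had 55.1 RPKM there against 40.6 to 42.0 RPKM in the other 3 libraries, Cenpe had 18.1 against 11.7 to 12.5 RPKM, and Cenpn had 17.2 against 11.7 to 12.4 RPKM. Ncapg had 12.8 against 8.86 to 9.36 RPKM and Ncapd2 had 106 against 81.0 to 84.0 RPKM in the same library. In Chd4dPax7ER replicate 2, 2 genes were low: Cenpi had 3.35 RPKM against 5.53 to 5.71 RPKM, and Aspm had 3.59 against 6.48 to 6.96 RPKM. No group of the in vitro libraries held such a value.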

How the results depend on the processing

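In vitro 0 of 50 mitosis genes passed lower or higher with pseudocounts of 0.1 or 1, no filter, TPM or quantile scaling, no mean trend, and without each library in turn. With the replicate block 49 were lower, and 49 with the block and without each pair in turn, an alternative added after seeing the data. Of all 13567 genes, 2536 were called lower with the block and 1602 to 2044 without each pair in turn. The block was fitted because same-numbered in vitro libraries deviated together, and the labels do not state that they pair. In vivo 19 were lower, 19 and 20 with the other pseudocounts, 23 with TPM and 25 with quantile scaling, 14 with no mean trend, 18 with the replicate block, 7 with no filter (more genes tested) and 4 to 28 without each library in turn. None was higher in any of these. Calls of lower over all genes moved too, from 1588 of 13344 to 1552 and 1596 with pseudocounts of 0.1 and 1. They were 1960 with TPM and 1949 with quantile scaling, 1442 with no mean trend and 1184 with the block. With no filter 1202 of 22767 genes were called lower, and without each library in turn 1034 to 1436 of 13344. The difference between settings called 0 members in every alternative. Signs turned for the following genes. With TPM scaling Cdc25b was -0.018 in vitro and Mad1l1 was -0.026 in vivo. Without each library in turn, Cdc25b in vitro ran from -0.11 (without AdCRE 4) to 0.13 (without AdCRE 1), at or below 0 also without AdCRE 3, AdGFP 1 or AdGFP 2. In vivo Bub3 ran from -0.072 (without Chd4dPax7ER 4) to 0.087 (without Chd4dPax7ER 2), and was above 0 also without Chd4fl/fl 1. Cdc20 ran from -0.22 (without Chd4dPax7ER 4) to 0.059, Cdc25b from -0.15 (without Chd4fl/fl 3) to 0.00111, both highest without Chd4dPax7ER 2. Mad1l1 ran from -0.020 (without Chd4dPax7ER 4) to 0.083 (without Chd4dPax7ER 3), and was below 0 also without Chd4dPax7ER 2 or Chd4fl/fl 3. Without Chd4dPax7ER 2 Birc5 was 0.019, against -0.19 with all libraries, and Pttg1, at -0.14 with all, was 0.0092 without Chd4fl/fl 1 and 0.044 without Chd4fl/fl 2. The cause of these shifts was not tested. In vivo the block took Ttk (adjusted p = 0.0627), Plk4 (0.0657), Cenpi (0.0590) and Spc24 (0.0626) out of the calls and brought in Cenpa (0.0226), Cenpk (0.0370) and Knl1 (0.0467).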

Other observations

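Levels differed widely among the mitosis genes, and RPKM allows them to be ordered per length within a table. In AdGFP the highest means were those of Bub3 (71.6 ± 5.99 RPKM, SD, n = 4), Ncapd2 (66.3 ± 22.7), Cdc20 (49.0 ± 17.2), Top2a (48.6 ± 19.4) and Cdk1 (46.7 ± 11.3), and neighbours in this order lay within each other's spread. In Chd4fl/fl the order was led by Smc4 (90.3 ± 10.8 RPKM), Ncapd2 (88.5 ± 12.0), Top2a (79.6 ± 12.6), Mki67 (66.4 ± 13.8) and Ccna2 (56.8 ± 6.13). Plk4 was lowest in both (1.13 ± 0.321 and 2.00 ± 0.532 RPKM). The 50 genes made up 0.239 to 0.529% of the summed RPKM of an AdGFP library and 0.129 to 0.338% of an AdCRE library. They made up 0.377 to 0.551% in Chd4fl/fl and 0.202 to 0.358% in Chd4dPax7ER.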
